A study of Homo sapiens with 18 samples.

Results

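NRF1 and NRF2 are stress-responsive transcription factors encoded by NFE2L1 and NFE2L2. Histone modifications at the promoters of these 2 genes and of 8 genes whose products control or partner with them (KEAP1, MAFG, MAFF, MAFK, BACH1, SQSTM1, NGLY1 and DDI2) were examined in leukemia cells after inhibition of the immunoproteasome. For each modification, intervals reaching to within 2 kb of any annotated transcription start site (TSS) were collected, and the one with most counts on average over the 4 libraries stood for the gene. By this rule 9 of the 10 genes had an interval, out of 15257 protein-coding genes with one in the whole data set. No interval of the lists used here overlapped the window of SQSTM1, which is not analysed here. The rule that lists the genes uses their function and no measured value, and the list was drawn up with earlier results of these data known.

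MOLM-13, a human acute myeloid leukemia line with a KMT2A rearrangement, was exposed to 100 nM PR-957, an inhibitor of the immunoproteasome subunit PSMB8 that is also called ONX-0914, or to DMSO as vehicle. The sample labels give 72 h of treatment, while a legend of the study gives a shorter time. Cut&Tag, in which an antibody directs the Tn5 transposase to tag DNA next to a histone modification, was performed for H3K4me3, H3K27ac, H3K4me1 and H3K27me3, with 2 libraries per treatment and modification and 16 libraries in all. All groups share the same cell line and carry no engineered allele, and nothing in the labels says that the libraries of a group came from separate cultures, so that the p-values measure the spread between libraries, which may be technical.

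Both factors bind antioxidant response elements as dimers with one of the small MAF proteins (MAFG, MAFF or MAFK), which lack an activation domain of their own. NRF2 is held at low levels by KEAP1, the adaptor that presents it to a ubiquitin ligase, and BACH1 is a repressor that occupies the same elements. NRF1 is made in the membrane of the endoplasmic reticulum, extracted into the cytosol, deglycosylated by NGLY1 and cut by the protease DDI2, and it is known for raising proteasome genes when proteasome activity is low. H3K4me3 and H3K27ac mark active promoters, H3K4me1 marks enhancers and the flanks of promoters, and H3K27me3 marks genes repressed by Polycomb complexes.

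Libraries of H3K4me3 held between 30070119 and 44591150 counts in all, those of H3K27ac between 9885836 and 14165777, those of H3K4me1 between 15204186 and 30584219 and those of H3K27me3 between 10032503 and 12047958. These sums run over overlapping intervals, so the same reads or fragments can count more than once and the sums can overstate depth. Levels below are counts relative to the TMM-scaled library size (CPM), and levels of different genes are set against each other only as CPM per kb of interval. The labelled cell type was checked against 11 myeloid marker genes, of which 10 had an H3K4me3 interval and all 11 an H3K27ac and an H3K4me1 interval. MPO, which encodes myeloperoxidase, had no H3K4me3 interval. Of 8 markers of other cell types, 3 had an H3K4me3 interval, and CD3E, GATA1, ALB and KRT14 had none in H3K4me3, H3K27ac or H3K4me1. Percentiles of H3K4me3 CPM per kb ran from 3.13 to 97.5 for the myeloid genes and from 2.87 to 30.0 for those 3, and in H3K4me1 from 34.3 to 98.3 against 33.3 to 52.9 for the 2 with an interval, so the lists overlapped in level and differed in how many genes had an interval.

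Antioxidant response elements share the letters TGACNNNGC, and those that begin with the heptamer TGACTCA also carry the core of a MAF recognition element. Searched on both strands within 2 kb of the canonical TSS, TGACNNNGC occurs in 76.7% of 20020 protein-coding genes and therefore separates few of them, while the form that begins with TGACTCA occurs in 4.51%. Among the 9 genes this form was found once each at MAFG, BACH1 and MAFK, and in none of the other 6. It lies 760 bases into MAFG (minus strand), 1394 bases into BACH1 (plus strand) and 274 bases into MAFK (plus strand), in every case in an intron and on the strand opposite to the gene. The stretches around it are shown because these genes encode partners and a competitor at such elements. The match in MAFG lies inside the only region of the 9 genes that passed the test below. Any match within 2 kb of its TSS would lie inside that broad region. The representing H3K4me1 intervals of BACH1 and MAFK also contain their match and did not pass, and a link was not tested. They are given 5′ to 3′ along each gene in hg38, with the element in capitals.
MAFG, chr17:81926872-81927070: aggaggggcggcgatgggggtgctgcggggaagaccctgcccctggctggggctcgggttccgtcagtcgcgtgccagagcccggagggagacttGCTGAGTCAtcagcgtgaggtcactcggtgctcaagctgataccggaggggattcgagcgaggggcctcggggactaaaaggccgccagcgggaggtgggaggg
BACH1, chr21:29300246-29300394: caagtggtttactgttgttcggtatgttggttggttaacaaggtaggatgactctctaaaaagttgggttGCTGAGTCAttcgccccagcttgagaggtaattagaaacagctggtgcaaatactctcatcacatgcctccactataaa
MAFK, chr7:1530966-1530994: ctacctggccGCTGAGTCAcggccgcctg
Of the wider form TGACNNNGC, NFE2L1 had no match in its window and NFE2L2 had 3. A match of letters is a description, and binding was not measured.

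In DMSO the promoters of all 9 genes carried H3K4me3 and H3K27ac across the canonical TSS. The H3K4me3 level in DMSO ranged from 3.66 CPM per kb at MAFK to 8.25 CPM per kb at KEAP1. In descending order the mean of the 2 DMSO libraries was 8.25 ± 0.30 (SD, n = 2) for KEAP1, 7.20 ± 0.02 for MAFG, 6.59 ± 0.47 for NFE2L2 and 5.08 ± 0.02 for BACH1. NGLY1 (4.80 ± 0.09), MAFF (4.78 ± 0.21), NFE2L1 (4.77 ± 0.04) and DDI2 (4.67 ± 0.04) followed. The range of MAFF over its 2 libraries overlapped that of each of the others, so that MAFF cannot be placed among these 4. NGLY1 and NFE2L1 also overlapped and were not separated. The order holds for the representing intervals alone, since NFE2L1 stood at 7.30 CPM per kb with its narrowest interval. Of the 9 genes, 8 lay above the median of the 12790 protein-coding genes with an H3K4me3 interval.

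**Figure D1:**
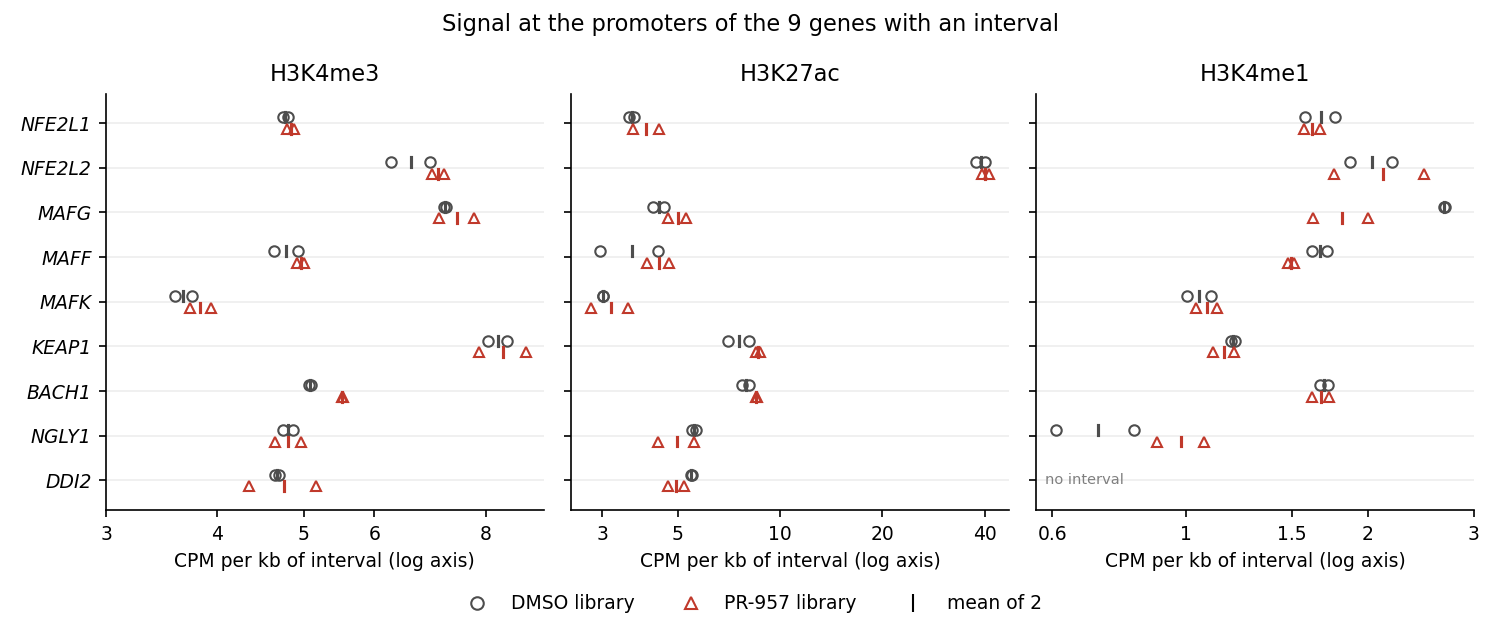
Level of each modification at the interval representing each gene, in TMM-scaled CPM per kb of interval on a log axis. Each circle is a DMSO library, each triangle a PR-957 library and each short bar the mean of 2. NFE2L2 stands apart in H3K27ac near 40 CPM per kb in all 4 libraries, and MAFG is the gene whose PR-957 libraries lie lowest relative to DMSO in H3K4me1.

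NFE2L2 carried the second highest H3K27ac level per kb of all 12085 genes with an interval. Its interval of 3056 bp over the canonical TSS (chr2:177262931-177265987) held 122.6 and 115.1 CPM in the DMSO libraries and 119.8 and 125.7 CPM in the PR-957 libraries, from raw counts between 1142 and 1786. The level was 38.9 ± 1.73 CPM per kb in DMSO (SD, n = 2), against 7.92 ± 0.25 at BACH1 and 7.57 ± 0.79 at KEAP1, which overlapped each other. NGLY1 (5.59 ± 0.11) and DDI2 (5.48 ± 0.03) were next and differed by no more than their spread, ahead of MAFG at 4.41 ± 0.24. MAFF (3.67 ± 0.99) had a range that met those of MAFG, NFE2L1 (3.66 ± 0.09) and MAFK, the lowest at 3.01 ± 0.01, and could not be placed among them. The H3K4me3 level of NFE2L2 was at the 78.4th percentile, where the deposited interval of 7122 bp extends beyond the H3K27ac interval. A narrower H3K4me3 interval of 3004 bp at the same start held 43.0 of the 44.6 CPM in the first DMSO library, so the level per kb depends on which of the overlapping intervals stands for the gene. This applies to H3K27ac as well. A KEAP1 interval of 2770 bp held 53.4 and 45.4 CPM in DMSO, against 59.2 and 51.0 CPM in the representing 7276 bp. For MAFG, 3345 bp over the TSS held 25.3 and 31.1 CPM, against 55.9 and 60.4 CPM in 13201 bp. The H3K27ac order above therefore holds for the representing intervals alone.

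H3K4me1 was placed differently. DDI2 had no H3K4me1 interval, and in 5 of the other 8 genes the representing interval covered the canonical TSS. The level in DMSO ran from 0.71 ± 0.15 CPM per kb at NGLY1, at the 12.9th percentile of 8701 genes, to 2.68 ± 0.01 at MAFG, at the 84.7th percentile. NFE2L2 followed MAFG at 2.03 ± 0.23, in an interval far from its canonical TSS that is described below. Then came BACH1 (1.67 and 1.72 in its 2 DMSO libraries), NFE2L1 (1.67 ± 0.14) and MAFF (1.67 ± 0.07), which overlapped each other, and KEAP1 (1.20 ± 0.01) and MAFK (1.05 ± 0.07). This order holds for the representing intervals alone, and the NFE2L2 value is not that of its canonical promoter. At NFE2L2 no H3K4me1 interval crossed the canonical TSS. The nearest began 461 bases upstream, ran to 4349 bases upstream and held 3.46 and 3.80 CPM in DMSO. The next lay between 2608 and 5278 bases downstream. The interval with the most counts, at 10.6 and 9.03 CPM in DMSO, lay about 130 kb upstream (from 134358 to 129523 bases), within 2 kb of another annotated start. It contained no start of a protein-coding gene itself, so its counts are not assigned to NFE2L2 alone. At BACH1 the representing H3K4me1 interval began 958 bases downstream of the canonical TSS and held 12.4 and 12.8 CPM in DMSO. Another, from 2155 bases upstream to 4335 bases downstream, did cross that TSS and held 9.42 and 8.32 CPM.

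**Figure D2:**
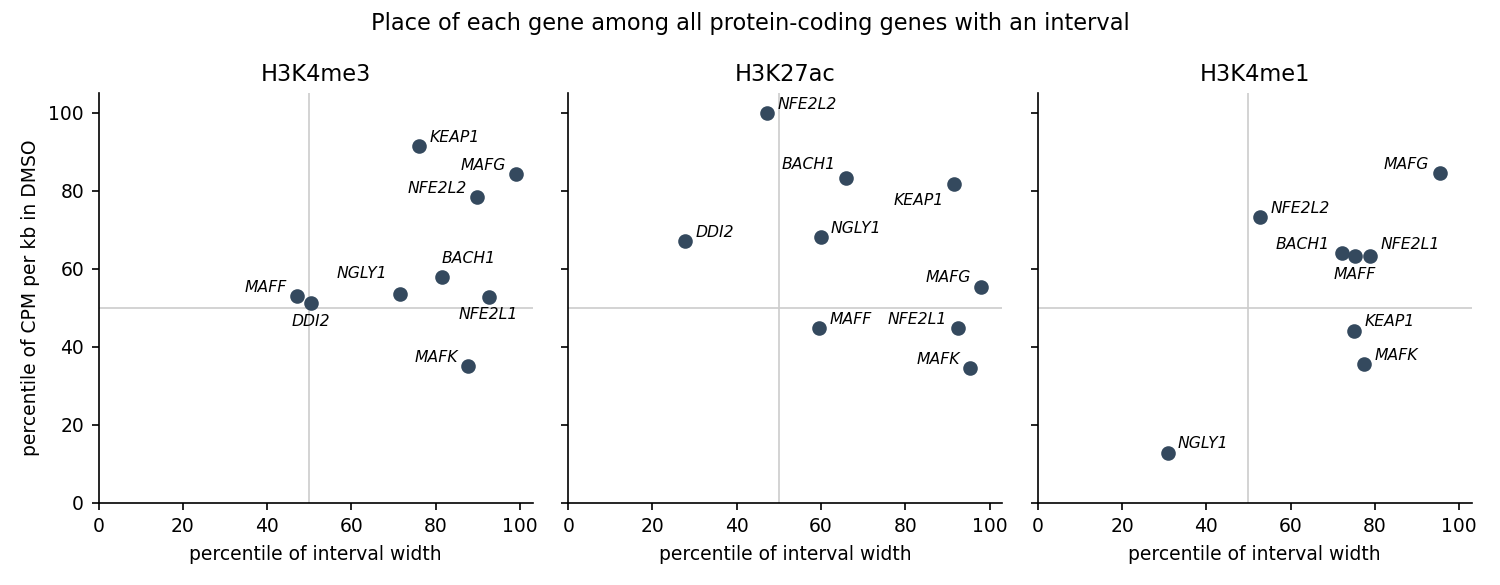
Percentile of the DMSO level (vertical axis, CPM per kb) against the percentile of the interval width (horizontal axis) for each gene, among the 12790 (H3K4me3), 12085 (H3K27ac) and 8701 (H3K4me1) protein-coding genes with a tested interval. MAFG lies at or above the 95.4th percentile of width in all 3 panels, and NFE2L2 reaches the top of the level scale in H3K27ac at an average width.

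MAFG had the broadest domain of the 9 genes in all 3 modifications. Its H3K4me3 interval spanned 15034 bp and its H3K27ac interval 13201 bp, wider than those of 99.2% and 98.1% of genes, and its H3K4me1 interval spanned 17200 bp. All 3 also contained starts of SIRT7, a deacetylase gene on the same strand that overlaps the end of MAFG, and MILIP, a noncoding RNA gene, begins on the other strand just upstream of the MAFG start. Counts over these intervals can therefore not be assigned to MAFG alone. Broad H3K4me3 was frequent among the 9 genes, of which 6 lay above the 75th percentile of width. DDI2, at 4022 bp, and MAFF, at 3892 bp, were near the middle.

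No H3K27me3 interval overlapped the window of any of the 9 genes. The nearest lay 7.55 kb from the canonical TSS of NFE2L1, 28.6 kb from that of MAFK and 29.7 kb from that of MAFG, and for the other 6 genes it was between 80.4 kb and 2258 kb away. Among all genes with an H3K4me3 interval, 18.1% had an H3K27me3 interval in the same window. Of the 31806 tested H3K27me3 intervals 5.92% passed the test between PR-957 and DMSO in edgeR, but the effect on this modification could not be examined at the genes themselves.

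Base composition set 1 annotated start of BACH1 apart from the other promoters. RefSeq promoter windows (hg38, 250 bases before to 50 after a start) were found for 8 of the 9 genes, MAFK being the exception, with 15 windows in all. Of these, 14 had a GC content of 59.3% or more, where the median of 35116 windows is 58.7%. The remaining window belongs to a start inside BACH1 and has a GC content of 34.3% and an observed-to-expected CpG ratio of 0.11, against 77.7% and 1.05 at the canonical start. The first 240 bases of both windows on the plus strand of hg38 show this contrast, with each CG dinucleotide in capitals.
BACH1 canonical start, chr21:29298672-29298911: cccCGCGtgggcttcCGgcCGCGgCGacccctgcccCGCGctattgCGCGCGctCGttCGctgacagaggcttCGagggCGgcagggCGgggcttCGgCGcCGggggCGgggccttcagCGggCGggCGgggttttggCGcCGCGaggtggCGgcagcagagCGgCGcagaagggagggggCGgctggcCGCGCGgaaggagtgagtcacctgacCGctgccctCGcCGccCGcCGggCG
BACH1 internal start, chr21:29304954-29305193: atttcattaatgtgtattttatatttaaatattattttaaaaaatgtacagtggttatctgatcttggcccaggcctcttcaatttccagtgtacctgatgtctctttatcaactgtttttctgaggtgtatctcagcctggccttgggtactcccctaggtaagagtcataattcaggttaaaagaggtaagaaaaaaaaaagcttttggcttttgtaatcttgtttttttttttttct
The first stretch has 39 CG dinucleotides and the second has 0. The representing H3K4me3 interval of BACH1 (chr21:29297614-29303460) contains the first start and ends before the second. The representing H3K4me1 interval (chr21:29299879-29307306) contains the second and not the first. A further H3K4me1 interval (chr21:29296766-29303257) contains the first and ends before the second.

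The question of the treatment comparison is whether these promoters changed when the immunoproteasome was inhibited. H3K4me3 did not pass the test at any of the 9 genes, and their 52 intervals held no call either. Over all 59229 tested intervals, 0.226% passed an adjusted p of 0.05 in edgeR, and by gene the share was 0.219%. None of the 9 had an unadjusted p below 0.05, where 8.04% of genes did. The log2 fold change of PR-957 over DMSO lay between 0.00 at NGLY1 and 0.12 at BACH1, with a median of 0.04 against 0.00 over all intervals tested. The approximate 95% intervals of the 9 values lay between -0.16 and 0.27, for the representing intervals alone. Among the 52 intervals, 1 had an unadjusted p below 0.05 and a far larger value. It is a weak stretch of 1534 bp inside the BACH1 domain, from 2735 to 4268 bases downstream of the TSS, that held 0.76 and 1.47 CPM in DMSO and 2.10 and 2.34 CPM in PR-957 (log2 fold change 1.00, SE 0.35, unadjusted p = 0.00475, adjusted p = 0.325 in edgeR), without overlap.

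The 2 transcription factor genes showed values of this size in single libraries. NFE2L1 held 37.2 and 37.6 CPM of H3K4me3 in the DMSO libraries and 38.3 and 37.5 CPM in the PR-957 libraries, and the groups overlapped (log2 fold change 0.02, SE 0.07). NFE2L2 held 44.6 and 49.3 CPM in DMSO and 49.6 and 51.1 CPM in PR-957. Both PR-957 libraries were above both DMSO libraries there, with a log2 fold change of 0.10 (SE 0.07, adjusted p = 0.827 in edgeR) that was 0.03 without DMSO replicate 1 and 0.18 without DMSO replicate 2. BACH1 was the other gene without overlap, at 29.8 and 29.6 CPM against 32.2 and 32.3 CPM (log2 fold change 0.12, SE 0.08, adjusted p = 0.791 in edgeR). By gene, 16.9% of all genes had both PR-957 libraries above both DMSO libraries and 21% had them below, against 2 and 0 of these 9.

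Further annotated starts of NFE2L2 and NGLY1 gave the same picture. The interval at the NFE2L2 start about 130 kb upstream carried 19.0 and 19.2 CPM of H3K4me3 in DMSO and 19.8 and 17.7 CPM in PR-957 (log2 fold change -0.02). Starts of other genes inside this interval were not looked up, so its counts are not assigned to NFE2L2 alone. About 6 to 9 kb upstream of the NGLY1 start (from 8846 to 6022 bases), a further domain held 18.9 and 16.2 CPM in DMSO and 17.7 and 18.2 CPM in PR-957. NGLY1 itself held 24.6 and 23.9 CPM in DMSO and 25.1 and 23.4 CPM in PR-957, over an interval that also contains a start of OXSM, which encodes a mitochondrial fatty acid synthase enzyme. Groups overlapped at each of these.

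**Figure D3:**
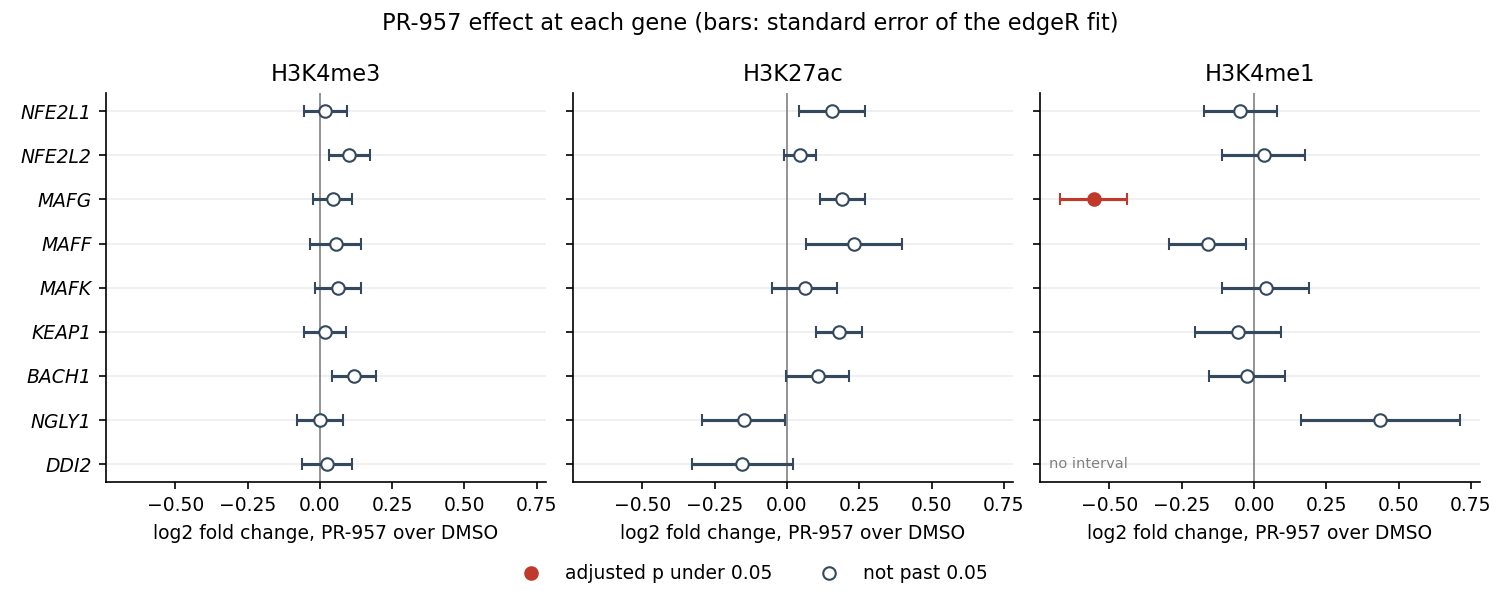
Log2 fold change of PR-957 over DMSO at the interval representing each gene, with its standard error from the edgeR fit over 2 libraries against 2. The filled red point, MAFG in H3K4me1 at -0.55, is the only one with an adjusted p under 0.05. All H3K4me3 values lie within 0.12 of 0.

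H3K27ac gave no call among the 9 genes or their 51 intervals, where 0.238% of all 74510 tested intervals and 0.48% of genes passed in edgeR. MAFG and KEAP1, 2 of the 9, had an unadjusted p below 0.05, where 9.55% of genes did. MAFG held 55.9 and 60.4 CPM in DMSO and 61.9 and 70.1 CPM in PR-957, which do not overlap, with a log2 fold change of 0.19 (SE 0.08, unadjusted p = 0.0132, adjusted p = 0.436 in edgeR). The narrower interval over its TSS, from 1613 bases upstream to 1731 bases downstream and thus across the element printed above, held 25.3 and 31.1 CPM against 30.7 and 36.7 CPM, with a log2 fold change of 0.28 (SE 0.11, adjusted p = 0.426 in edgeR). KEAP1 held 59.2 and 51.0 CPM in DMSO and 61.7 and 63.6 CPM in PR-957, again without overlap (log2 fold change 0.18, SE 0.08, unadjusted p = 0.0225, adjusted p = 0.500 in edgeR). Leaving out 1 library moved the value at KEAP1 from 0.08 (without DMSO replicate 2) to 0.30 (without DMSO replicate 1), and that at MAFG from 0.09 (without PR-957 replicate 2) to 0.27 (without PR-957 replicate 1).

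The remaining H3K27ac values were not separated from 0 by their error. NFE2L1 held 27.9 and 28.8 CPM in DMSO and 28.6 and 34.1 CPM in PR-957 (log2 fold change 0.16, SE 0.11), the difference resting on 1 PR-957 library. NFE2L2, whose counts per library were the highest of the 9, had a log2 fold change of 0.05 (SE 0.06) with an approximate 95% interval from -0.06 to 0.16. NGLY1 and DDI2 had values below 0. NGLY1 held 20.1 and 19.6 CPM in DMSO against 15.6 and 19.8 CPM (log2 fold change -0.15, SE 0.14), and DDI2 held 13.6 and 13.5 CPM against 12.9 and 11.6 CPM (log2 fold change -0.15, SE 0.17, adjusted p = 0.906 in edgeR). At NGLY1 the groups overlapped and the difference rested on 1 PR-957 library, in an interval that also contains a start of OXSM. A further NGLY1 interval, from 7880 to 5886 bases upstream, had a log2 fold change of 0.10 (SE 0.18). Over the 9 genes the median was 0.11, against 0.00 over all intervals tested, with 7 values above 0 and 2 below. PR-957 lay above DMSO in every library for 3 genes and below for 1, where 19.1% and 19.3% of all genes did so.

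For H3K4me1 the interval representing MAFG was called lower in PR-957. This call depended on 1 library and on the method, as given below. The interval of 17200 bp (chr17:81917582-81934782) runs from 7047 bases upstream of the TSS to 10152 bases downstream of it, past the end of the gene, and also contains starts of SIRT7. It held 46.0 and 46.2 CPM in the DMSO libraries and 28.0 and 34.4 CPM in the PR-957 libraries. Both PR-957 libraries were below both DMSO libraries, and the distance between the PR-957 libraries was much larger than that between the DMSO libraries. The log2 fold change was -0.55 (SE 0.12, adjusted p = 0.00134 in edgeR). MAFG was thus 1 of 8 genes called, where 1.94% of all 108158 intervals and 2.15% of genes were called in either direction, and 1.45% of genes were called lower.

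The called intervals at MAFG reached mainly downstream of its start. Of the 50 H3K4me1 intervals of the 8 genes, 4 were called, all of them at this locus and overlapping each other, so they count as 1 observation. The 3 others start between 704 and 1004 bases downstream of the TSS and end between 11367 and 12787 bases downstream, with log2 fold changes from -0.64 to -0.63. The intronic element lies within 1 of these 3, which begins at 704 bases, and just before the other 2. On the upstream side an interval from 12221 bases upstream to 141 bases downstream held 15.2 and 18.1 CPM in DMSO and 12.3 and 14.4 CPM in PR-957 (log2 fold change -0.31, SE 0.13, adjusted p = 0.181 in edgeR). It also contains a start of PYCR1, so its counts cannot be assigned to MAFG alone. A short interval directly upstream of the TSS, ending 2 bases before it, stayed at 2.68 and 2.68 CPM against 2.70 and 2.96 CPM (log2 fold change 0.09, SE 0.27). The difference between both sides was not tested.

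**Figure D4:**
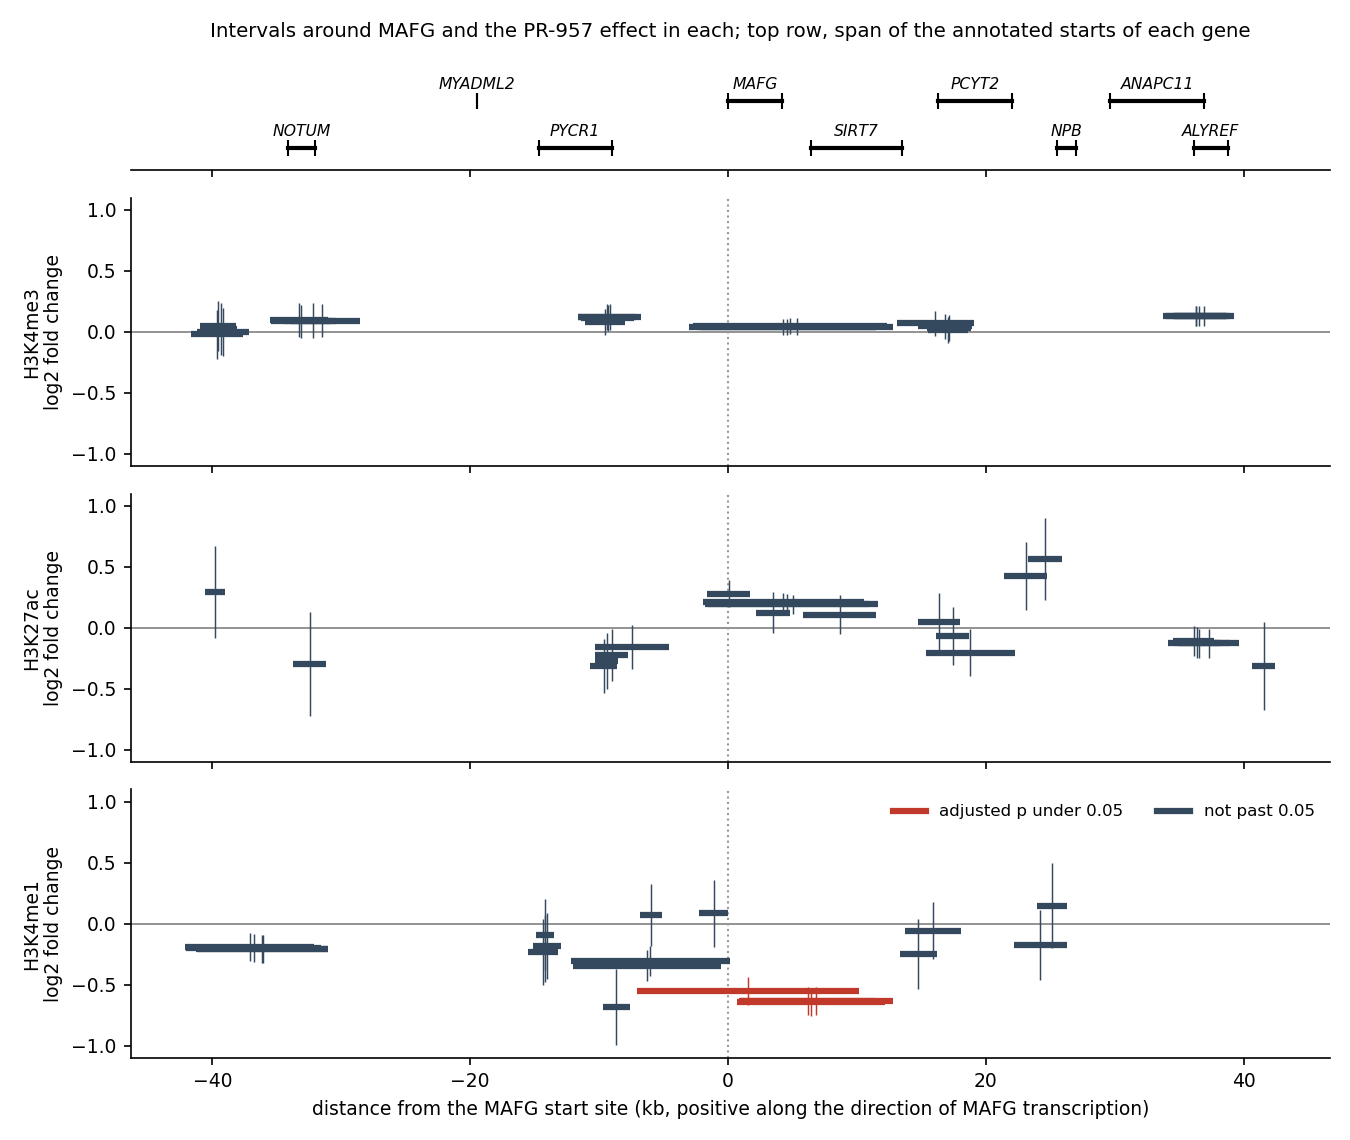
Log2 fold change of PR-957 over DMSO in every tested H3K4me3, H3K27ac and H3K4me1 interval within 45 kb of the MAFG start. Horizontal bars span each interval, thin vertical bars are standard errors, and the top row shows the span of annotated starts of MAFG and its neighbours. The called H3K4me1 intervals, in red, cover MAFG and SIRT7, where the H3K4me3 bars lie at 0.04 and the broad H3K27ac bars near 0.2.

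The 3 modifications were set side by side over MAFG. The interval values were 0.04 for H3K4me3, 0.19 for H3K27ac and -0.55 for H3K4me1, of which the first 2 did not pass, and the difference between modifications was not tested because each has its own libraries and intervals. No other interval within 45 kb was called in any modification, among 24 tested for H3K4me3, 22 for H3K27ac, 21 for H3K4me1 and 4 for H3K27me3. The next broad H3K4me1 domain, over NOTUM more than 30 kb upstream, had log2 fold changes from -0.21 to -0.19 in its 4 overlapping intervals, with adjusted p-values of 0.354 or more in edgeR.

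The call at MAFG depended on 1 library and on the method. Without PR-957 replicate 1, the H3K4me1 library with the fewest counts (15204186), the log2 fold change was -0.42 with an adjusted p of 0.295 in edgeR, and without the other PR-957 library it was -0.72. DESeq2 gave -0.56 with an adjusted p of 0.0561. The interval has a GC content of 62.0%, where the median of tested H3K4me1 intervals is 46.3%, and intervals elsewhere whose GC content was within 1 percentage point had a median log2 fold change of -0.13 (1907 intervals, of which 1.47% were called lower and 4.3% had a log2 fold change as low as at MAFG). After correction for the GC trend, the log2 fold change at MAFG was -0.43 with an adjusted p of 0.0614 in edgeR. Among 695 intervals elsewhere whose width was within 10% of that of MAFG, 0% had a log2 fold change as low as at MAFG, and their median was -0.14. Only 11 intervals were alike in both GC content and width. Their median was -0.18 and 0% were as low as MAFG, on too few intervals to place MAFG among them.

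No other gene was called for H3K4me1. MAFF held 13.75 and 12.96 CPM in DMSO and 12.1 and 11.8 CPM in PR-957, without overlap (log2 fold change -0.16, SE 0.13, adjusted p = 0.578 in edgeR). Its interval also contains a start of PLA2G6, so these counts cannot be assigned to MAFF alone. MAFK held 8.47 and 9.28 CPM against 9.498 and 8.784 CPM (log2 fold change 0.04, SE 0.15). Thus 2 of 8 genes had all PR-957 libraries below DMSO, where 32.5% of all genes did. NGLY1 was the 1 gene with both above, where 15.3% of genes were, at 2.71 and 2.01 CPM against 3.53 and 2.96 CPM (log2 fold change 0.44, SE 0.27, adjusted p = 0.432 in edgeR), on raw counts of 48 to 80. NFE2L1, NFE2L2, KEAP1 and BACH1 had log2 fold changes between -0.06 and 0.03, each with overlapping groups. The NFE2L2 value is that of the interval about 130 kb upstream of its canonical TSS. Nearer to that TSS, the interval from 4349 to 461 bases upstream had a log2 fold change of -0.20 (SE 0.24). The one from 2608 to 5278 bases downstream had 0.22 (SE 0.34), and neither was called. The median over the 8 genes was -0.04, against 0.00 over all intervals and -0.08 over all genes.

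Other genes that act on the pathway were examined through a list of 27 regulators, among them the NRF family members NFE2 and NFE2L3, the ligase scaffold CUL3, the unfoldase VCP and the coactivators CREBBP and EP300. None was called in H3K4me3 (0 of 26 tested), H3K27ac (0 of 25), H3K4me1 (0 of 17) or H3K27me3 (0 of 2) in edgeR. An unadjusted p below 0.05 was found for 1, 4, 1 and 1 of them, where 8.04%, 9.55%, 16.9% and 22.9% of all genes had one. Under DESeq2 none was called either. The medians were 0.01, 0.03 and 0.01 for the 3 active modifications.

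Among 25 listed genes that NRF2 is known to drive, 2 of 20 tested were called for H3K4me3 and both were higher, where 0.18% of genes were called higher. ME1, which encodes the NADPH-producing malic enzyme, held 4.34 and 4.18 CPM in DMSO and 9.65 and 10.8 CPM in PR-957 (log2 fold change 1.26, SE 0.15, adjusted p = 1.3e-13 in edgeR). SRXN1, which encodes the sulfiredoxin that repairs oxidized peroxiredoxins, held 22.6 and 22.3 CPM against 29.5 and 29.9 CPM (log2 fold change 0.40, SE 0.08, adjusted p = 0.000441 in edgeR). The call of SRXN1 was lost with DESeq2 (adjusted p = 0.0582) and, in edgeR, without DMSO replicate 2 (adjusted p = 0.116), and the median of the 20 genes was 0.09.

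For H3K27ac 0 of 19 NRF2 target genes were called in edgeR, with 4 at an unadjusted p below 0.05 (9.55% of all genes) and 0 called by DESeq2, and the median was 0.12. For H3K4me1 1 of 19 was called, the drug exporter gene ABCC3, where 0.701% of genes were called higher. Its interval lies 24786 to 27835 bases downstream of the canonical TSS, at another annotated start. It held 4.47 and 4.35 CPM in DMSO and 9.11 and 10.5 CPM in PR-957 (log2 fold change 1.16, SE 0.17, adjusted p = 2.7e-07 in edgeR). ABCC3 also had an H3K27me3 interval over its canonical TSS, at 75.4 and 74.8 CPM against 89.3 and 92.0 CPM (log2 fold change 0.27, adjusted p = 0.00792 in edgeR), 1 of 2 target genes tested where 1.83% of genes were called higher. That call was lost without either DMSO replicate (adjusted p = 0.144 and 0.205 in edgeR), without PR-957 replicate 2 (0.113), with GC-trend offsets (0.0862), with 1 interval per locus (0.192) and with DESeq2 (0.128). With library size only its log2 fold change was 0.43.

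**Figure D5:**
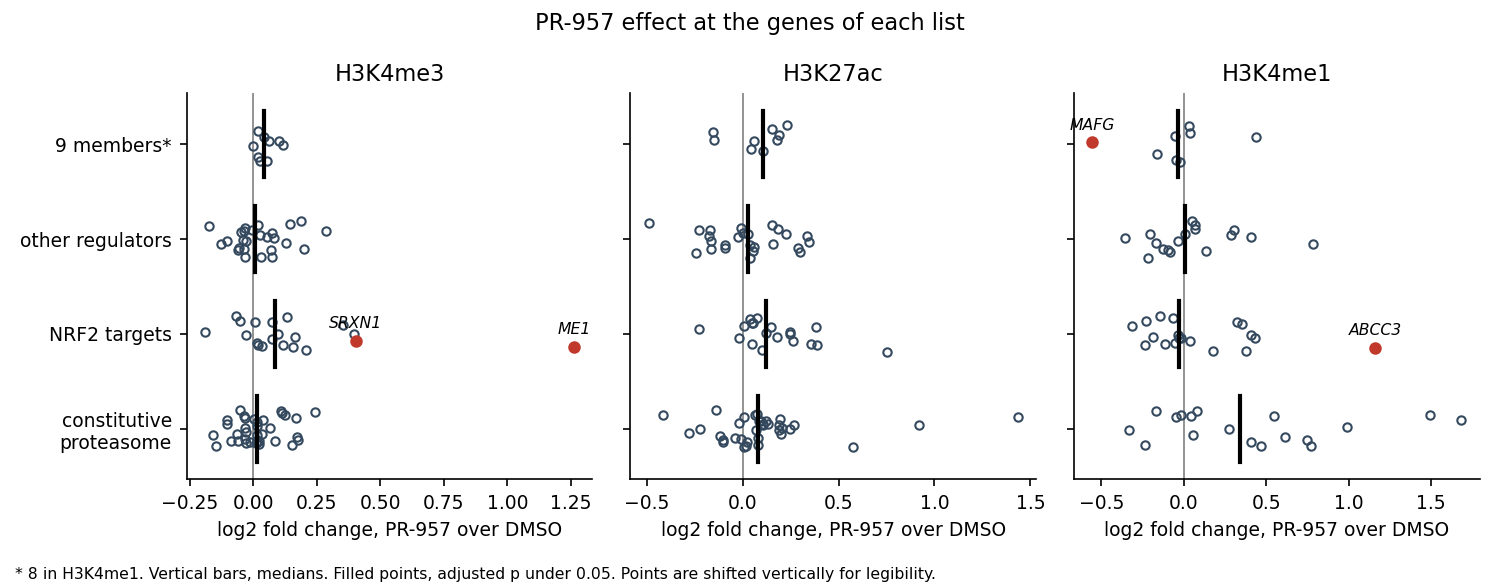
Log2 fold change of PR-957 over DMSO for every tested gene of 4 lists, 1 point per gene, with medians as vertical bars and genes past an adjusted p of 0.05 filled and named. In H3K4me3 only ME1 and SRXN1 are filled, in H3K27ac no gene is, and in H3K4me1 MAFG is filled on the left and ABCC3 on the right.

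The constitutive proteasome genes, which NRF1 is known to raise, gave no call in edgeR, with 0 of 35 tested for H3K4me3, 0 of 35 for H3K27ac and 0 of 18 for H3K4me1. An unadjusted p below 0.05 was found for 3, 5 and 6 of them, where 8.04%, 9.55% and 16.9% of all genes had one, and DESeq2 called 0 in each. Of those at an unadjusted p below 0.05, 3, 4 and 6 were higher in PR-957 and 0, 1 and 0 were lower. The median log2 fold change was 0.01 for H3K4me3, 0.08 for H3K27ac and 0.34 for H3K4me1, against 0.00 over all intervals for each. Over all genes the medians were -0.01, 0.00 and -0.08. The smallest adjusted p in H3K4me1 was 0.0601, at PSMA3, with a log2 fold change of 1.68 (SE 0.53).

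Over the 12 libraries of the 3 active modifications, the genes nearest to NFE2L1 in log2 of CPM per kb plus 0.5 were RALA, WDR45B and NUP50, at Euclidean distances of 0.28 to 0.36 where the median over 7188 genes is 2.18. The nearest to NFE2L2 were SLC39A10, PRDM10 and AMD1, at 1.53 to 1.61 where the median is 6.55, so that NFE2L2 had no neighbour as close as those of NFE2L1. These distances mainly order genes by level, and nothing about shared control was examined.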

How the data were processed

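The authors deposited raw counts of reads or fragments per interval for each library, without normalization. Each modification has its own list of overlapping intervals, shared by its 4 libraries. The submitters' processing notes name Trimmomatic 0.39, Bowtie2 2.2.5, Picard 2.27.1, SAMtools 1.7, SEACR 1.3 and deepTools 3.5.1 with hg38. Neither the counter nor the handling of duplicates is given in the sources used here. IgG controls (2 samples) were not used here. Interval coordinates are printed as listed.

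Intervals were kept by filterByExpr (minimum count 10), scaled by TMM and tested with the quasi-likelihood method in edgeR 4.0.16 (R 4.3.3), without the replicate number as a block, with Benjamini-Hochberg adjustment over all intervals of a modification and a threshold of 0.05. TSSs came from GENCODE release 44. CPM values were computed from the deposited counts, and the fit was tested on simulated counts. With 2 libraries against 2 an exact permutation test cannot go below 0.333. PCR duplicates may remain, so precision reflects counting and library spread.

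The members and gene lists were chosen with earlier results of these data known. All members are named, other regulators if called, and of the target and proteasome lists at most the 3 genes of smallest adjusted p. The 3 genes most like NFE2L1 and NFE2L2 were taken by Euclidean distance. Alternatives were median-of-ratios (RLE) factors, library size only, cyclic loess (limma 3.58.1), DESeq2 1.42.0 without independent filtering, no filter, a mean count of at least 50, the replicate block, each library left out, windows of 1 and 5 kb, the narrowest interval with a mean of at least 50 and the canonical TSS. GC-trend offsets (loess span 0.3), 1 interval per locus, other MAFG intervals and intervals elsewhere of like GC content, width or both were added after seeing the data. Promoter sequences are from RefSeq and matched hg38 in all 15 windows.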

Additional observations from a re-analysis of the deposited data

How the results depend on the processing

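Of 442 alternative values for the 26 log2 fold changes of the genes, 36 changed sign, 4 lost the threshold, 1 of them among those 36, and 0 gained it. MAFG in H3K4me1 was called under 13 of 17 alternatives, with log2 fold changes from -0.72 to 0.085 and adjusted p-values in edgeR or DESeq2 from 0.000204 to 0.913. It was lost with DESeq2, with GC-trend offsets, without PR-957 replicate 1 and with the narrowest interval, where it changed sign to 0.085 because another stretch was measured. The number of genes called in H3K4me1 was then 0, and 0 to 1 when a library was left out. All other values that changed sign belonged to uncalled genes. For H3K4me3 these were NFE2L1 with the narrowest interval (-0.0046), MAFG with GC-trend offsets (-0.00072) and NGLY1 with 1 interval per locus (-0.0076). For H3K27ac they were NFE2L2 (-0.23) and NGLY1 (0.11) with the narrowest interval. For H3K4me1, NFE2L2 turned to -0.22 with GC-trend offsets and the narrowest interval, to -0.20 with a window of 1 kb or the canonical TSS and to -0.013 with 1 interval per locus. NFE2L1 turned to 0.0010 with cyclic loess and 0.051 with GC-trend offsets, KEAP1 to 0.048 with GC-trend offsets and 0.0096 with the narrowest interval, MAFF to 0.060 with the narrowest interval and MAFK to -0.0074 with 1 interval per locus. BACH1 turned to 0.024 with library size only, 0.016 with cyclic loess, 0.0019 with a mean count of at least 50 and 0.76 with the narrowest interval. With the narrowest interval BACH1 in H3K4me3 kept its sign at 1.00. The cause was not tested except where another interval was used.

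Leaving out each library in turn moved the H3K4me3 values of DDI2 from -0.11 to 0.14, KEAP1 from -0.073 to 0.11, MAFG from -0.023 to 0.11 and NGLY1 from -0.049 to 0.047. It moved the H3K27ac values of MAFF from -0.00063 to 0.56 and MAFK from -0.11 to 0.24, and the H3K4me1 values of BACH1 from -0.069 to 0.030, KEAP1 from -0.11 to 0.0078, MAFK from -0.026 to 0.11, NFE2L1 from -0.13 to 0.035 and NFE2L2 from -0.21 to 0.28. The lone library of a group was then assumed to vary like the others. The median over the genes was 0.032 to 0.10 for H3K4me3 and 0.064 to 0.11 for H3K27ac. Under other settings it was 0.054 (library size only), 0.067 (cyclic loess), 0.014 (GC-trend offsets) and 0.030 (narrowest interval) for H3K4me3, and 0.12 (library size only), 0.13 (mean count of at least 50), 0.098 (GC-trend offsets) and 0.12 (narrowest interval) for H3K27ac. With the narrowest interval the median level was 6.14 CPM per kb for H3K4me3, 7.63 for H3K27ac and 1.07 for H3K4me1.

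Counts over all intervals were 25, 44, 20 and 947 with DESeq2 for H3K4me3, H3K27ac, H3K4me1 and H3K27me3, against 134, 177, 2099 and 1882 in edgeR, and 31, 39, 539 and 488 with 1 interval per locus, which tests fewer intervals. GC-trend offsets left 953 for H3K4me1. Leaving out each library gave 28 to 170, 20 to 89, 322 to 1756 and 1168 to 1517. NRF2 target genes called fell to 1 with DESeq2 and to 1 to 2 without a library for H3K4me3, to 0 with the canonical TSS for H3K4me1, and to 0 with DESeq2 or GC-trend offsets and 0 to 1 without a library for H3K27me3. The H3K4me1 count of proteasome genes rose to 1 with library size only and was 0 to 1 without a library.

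Same-numbered libraries deviated together with correlations of 0.167 for H3K4me3, -0.0089 for H3K27ac, 0.0068 for H3K4me1 and -0.0069 for H3K27me3, and with 2 pairs and no shared day or batch in the labels the numbers were not taken to pair the libraries. With the replicate block MAFG in H3K4me1 stayed called (log2 fold change -0.57, adjusted p = 0.0199 in edgeR), and the counts over all intervals were 161, 195, 1904 and 1324. Depth limits NGLY1 in H3K4me1 most.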

Other observations

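Beside the weak H3K4me3 stretch of BACH1 given above, 2 weak H3K4me1 intervals near members are given as values, chosen after they were seen. BACH1 has an annotated start about 100 kb upstream of the canonical TSS, where an interval (from 103226 to 100934 bases upstream) held 2.10 and 1.59 CPM in DMSO and 3.72 and 2.78 CPM in PR-957, with a log2 fold change of 0.79 (SE 0.30, adjusted p = 0.133 in edgeR). MAFK has one between 4692 and 6720 bases downstream of its TSS that held 2.17 and 1.42 CPM against 3.85 and 2.61 CPM, with a log2 fold change of 0.81 (SE 0.30, adjusted p = 0.128 in edgeR). Neither passed the threshold.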
